A study of Homo sapiens with 6 samples.

Results

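The genes of the nuclear pore complex and of the nuclear transport receptors were described after an siRNA against HOTAIR-N in T47D cells, a human breast cancer line of the luminal type that expresses the estrogen receptor. Members were chosen by symbol. They are the NUP genes, the importin alpha genes (KPNA) and importin beta (KPNB1), the numbered importins (IPO), exportins (XPO) and transportins (TNPO), and RANBP2, TPR, RAE1, NDC1, POM121, AAAS, CSE1L and RAN. This gave 56 of the 27968 genes in the tables, of which 52 had enough counts to be tested.

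The study transfected T47D cells with an siRNA against HOTAIR-N, which is named as one form of HOTAIR, a long noncoding RNA, or with a control siRNA, and took total RNA after 48 hours. Each group held 3 libraries, from independent transfections according to the series' design text. All 6 libraries come from 1 cell line without a labelled genetic change, all were exposed to the same lipid reagent, and the knockdown is transient. The comparison asks how the RNA of these genes differs after the HOTAIR-N siRNA at that time.

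The nuclear pore is a channel through the nuclear envelope, built from many copies of each of its proteins: transmembrane anchors, an outer ring called the Y complex, an inner ring, a channel filled with flexible repeats, filaments on the cytoplasmic side and a basket on the nuclear side. Importins carry proteins with a nuclear localisation signal inward and exportins carry proteins and RNAs outward, and the small GTPase RAN, bound to GTP in the nucleus and to GDP in the cytoplasm, sets the direction. In dividing cells the envelope opens and the pores come apart and are rebuilt, and several of these proteins then act on the spindle and the kinetochores.

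HOTAIR served as a check of the labels. It had 5.65, 5.63 and 5.68 CPM (counts scaled to library size) in the 3 HOTAIR-N siRNA libraries, against 16.2, 16.1 and 16.6 CPM in the 3 control siRNA libraries. The groups did not overlap, and the level with the HOTAIR-N siRNA was 34.7% of that with the control siRNA (edgeR's quasi-likelihood test, adjusted p = 2.1e-09). The gene table has 1 row for HOTAIR, so its forms are not separated. The libraries held 31777001 to 35259407 expected counts with the HOTAIR-N siRNA and 35106084 to 36707169 with the control siRNA, and 1 CPM stood for 32.9 to 36.4 counts. All 9 luminal epithelial markers were above 1 TPM (counts scaled to transcript length and library size) in every library, summing to 8197 to 9059 TPM with the HOTAIR-N siRNA and 9089 to 10306 TPM with the control siRNA. Keratins make up most of that sum, and single markers moved: the estrogen receptor gene ESR1 was at 32.1%, PGR at 36.4% and CDH1 at 186% of the control level. Of the markers of other cell types, 4 of 5 for fibroblasts, 4 of 4 for leukocytes and 3 of 3 for endothelium were below 1 TPM in every library. Within the groups, HOTAIR-N siRNA replicate 3 and control siRNA replicate 2 stood apart, with a chi-square per degree of freedom of 6.64 to 8.56 against their partners, where the other pairs had 2.3 and 2.16. Control siRNA replicate 2 was the highest of its group for 37 of 52 members and HOTAIR-N siRNA replicate 3 for 30 of 52. With both libraries left out, 46 members were called, 35 lower and 11 higher, against 45 with all libraries. Of all genes, 11130 were called without these libraries and 10605 with all libraries.

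Most of the transport machinery was lower after the HOTAIR-N siRNA. Of the 52 tested members, 34 fell (65.4%) and 11 rose (21.2%) at an adjusted p under 0.05, and 7 did not pass. NUP50-AS1, a noncoding antisense gene matched by its symbol alone, is counted among these falls, at 65.7% of its control level. Among all 14919 genes tested, 34.8% fell and 36.2% rose, so that the members' share of falls was above that background and their share of rises below it. The median log2 fold change of the members was -0.26, or 83.3% of the control siRNA level, and that of all genes was 0.02. The changes ran from -1.29 for NUP210 to 0.90 for KPNA5 on the log2 scale, with 16 called members under 75% of their control level and 2 above 1.5-fold. For 45 members the 3 values of each group did not overlap, 35 of them lower and 10 higher, where 73.4% of all genes had groups that did not overlap. KPNA6 was among the 35 without passing the test, and TNPO1 passed it although its groups overlapped. As bulk RNA was measured, fewer cells that hold an RNA and less of that RNA per cell cannot be told apart.

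**Figure D1:**
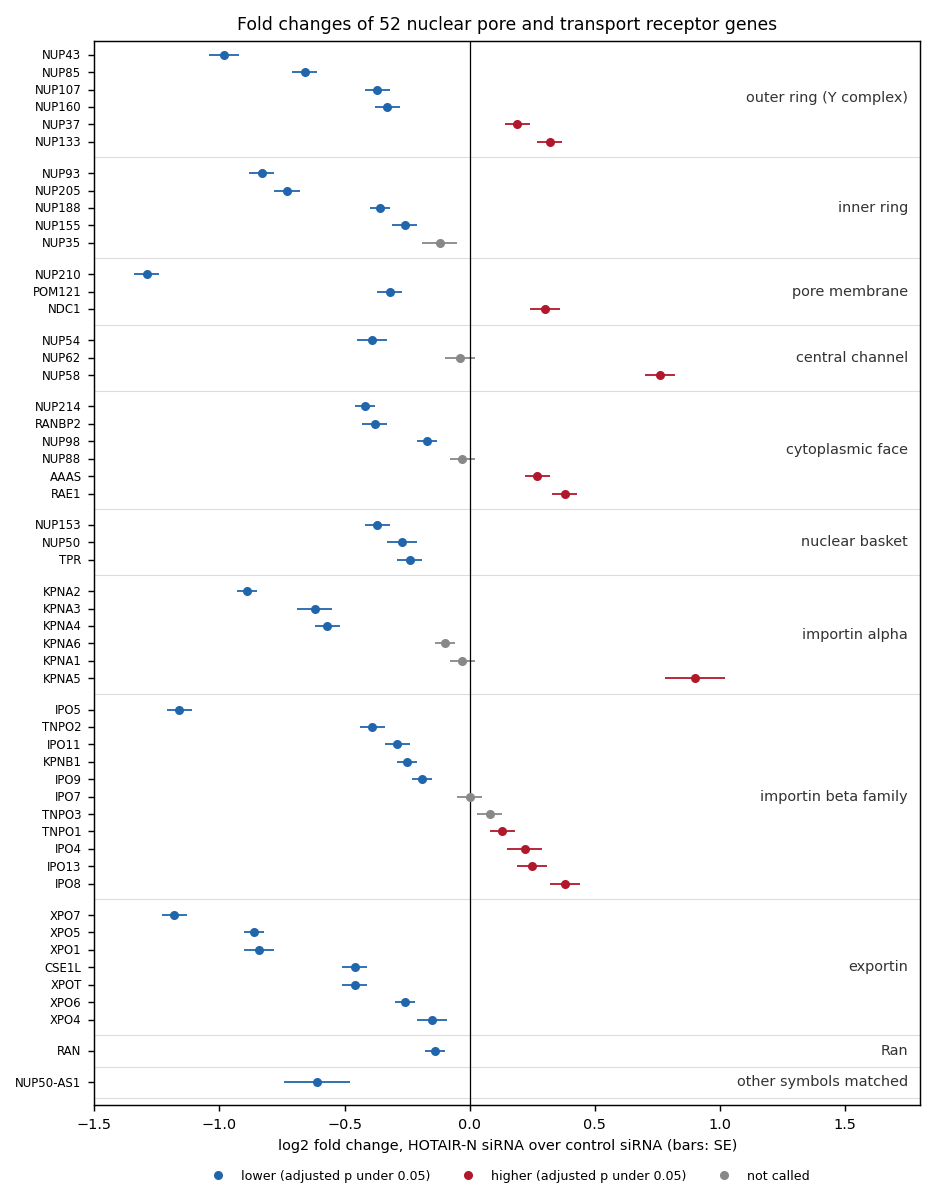
Log2 fold change of each tested member, HOTAIR-N siRNA over control siRNA, by role, with bars for the SE. Blue points fell, red points rose and grey points did not pass an adjusted p of 0.05; all 7 exportins and all 3 basket genes lie left of 0, and the importin beta family is spread from -1.16 to 0.38.

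Members differed from all genes more among the rises than among the falls, in a comparison that did not match the genes by abundance. The 25th percentile of the log2 fold change was -0.49 for the members and -0.34 for all genes, and the 75th percentile was -0.02 for the members and 0.41 for all genes. At the extremes, the 5th percentile was -1.06 for the members and -1.17 for all genes, and the 95th was 0.38 for the members and 1.4 for all genes. The cumulative curves of the members and of all genes lie close together at the left end and are well apart around 0. At a log2 fold change of 0, 76.92% of the members and 48.58% of all genes lay at or below it. At 0.95 the curves were closer again, with 100% of the members and 90.11% of all genes at or below it.

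**Figure D2:**
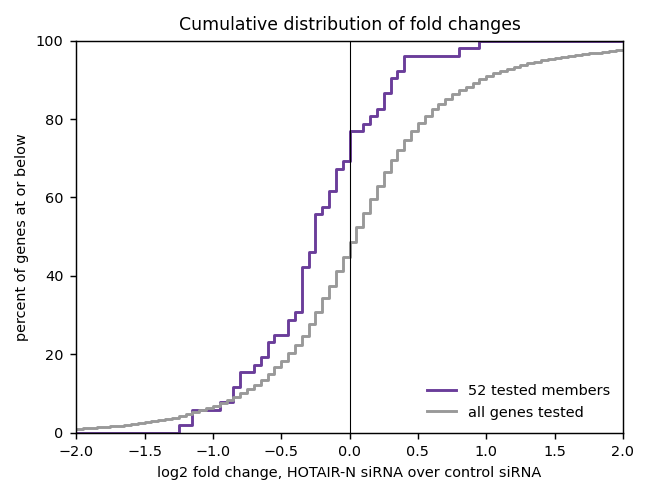
Percent of genes at or below each log2 fold change, HOTAIR-N siRNA over control siRNA, for the 52 tested members (purple) and for all 14919 genes tested (grey). The members' curve runs above that of all genes from about the 10th percentile upward, with medians of -0.26 and 0.02.

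Promoters are shown for 4 members of different roles with large changes, since the letters near the start are where factors that act on several of these genes would bind: NUP210, KPNA2 and XPO5, which fell, and NUP58, which rose. The sequences are those of RefSeq on GRCh38.p14, 5′ to 3′ on the gene's strand, with 250 bases before the annotated start and 50 after it. Capitals mark matches on either strand to 7 motifs: the CCAAT box (CCAAT), the CHR element of cell cycle genes (TTTGAA), an E2F site in a first spelling (TTCCCGC), an E2F site in another spelling (TTGGCGC), the NRF1 core (TGCGCA), an ETS site (CCGGAAG) and the SP1 GC box (GGGCGG), some of which can overlap.
NUP210 promoter, chr3:13420273-13420572, minus strand: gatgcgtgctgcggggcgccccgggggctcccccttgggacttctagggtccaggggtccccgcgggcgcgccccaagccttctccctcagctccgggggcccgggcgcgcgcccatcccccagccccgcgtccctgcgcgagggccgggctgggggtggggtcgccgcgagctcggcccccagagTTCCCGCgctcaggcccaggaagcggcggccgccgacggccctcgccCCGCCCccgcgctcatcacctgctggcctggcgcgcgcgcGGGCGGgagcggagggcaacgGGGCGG
KPNA2 promoter, chr17:68035485-68035784, plus strand: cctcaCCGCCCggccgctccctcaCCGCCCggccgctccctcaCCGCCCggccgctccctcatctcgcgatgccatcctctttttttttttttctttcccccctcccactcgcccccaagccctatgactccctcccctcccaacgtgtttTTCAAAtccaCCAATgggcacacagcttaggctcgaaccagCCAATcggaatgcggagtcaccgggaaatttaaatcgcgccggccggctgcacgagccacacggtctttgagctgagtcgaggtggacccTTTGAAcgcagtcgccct
XPO5 promoter, chr6:43575989-43576288, minus strand: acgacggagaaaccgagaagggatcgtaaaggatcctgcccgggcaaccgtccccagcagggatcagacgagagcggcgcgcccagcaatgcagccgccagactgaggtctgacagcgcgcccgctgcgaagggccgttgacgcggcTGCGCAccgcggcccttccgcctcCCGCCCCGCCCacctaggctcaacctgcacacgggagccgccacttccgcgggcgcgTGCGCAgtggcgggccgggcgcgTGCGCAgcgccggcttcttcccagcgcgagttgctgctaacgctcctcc
NUP58 promoter, chr13:25301375-25301674, plus strand: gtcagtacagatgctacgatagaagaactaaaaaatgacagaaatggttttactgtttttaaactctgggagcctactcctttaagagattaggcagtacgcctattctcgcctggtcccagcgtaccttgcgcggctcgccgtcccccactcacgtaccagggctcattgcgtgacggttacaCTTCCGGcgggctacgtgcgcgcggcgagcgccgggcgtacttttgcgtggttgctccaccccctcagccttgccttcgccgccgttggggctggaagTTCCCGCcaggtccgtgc
The KPNA2 window held the CCAAT box, the CHR element and the GC box, each more than once. The NUP210 window held the first E2F spelling and the GC box, the XPO5 window the NRF1 core and the GC box, and the NUP58 window the first E2F spelling and the ETS site. Promoters were listed for 48 of the 56 members, 61 windows in all. The first E2F spelling occurred in 18% of these windows, against 6.55% of all 35116 windows of this length, and the ETS site in 23%, against 10.3%. The CCAAT box occurred in 44.3% of the member windows and 34.6% of all, the CHR element in 24.6% and 15.2%, the NRF1 core in 13.1% and 8.24%, the other E2F spelling in 4.92% and 3.04%, and the GC box in 50.8% and 45%. These shares describe letters, not binding, and were not tested. NUP160 entered the count of the first E2F spelling through overlapping windows, and NUP210L and NUP62CL, which had too few counts to be tested, entered it too. Overlapping windows also entered other counts. Those of NUP98 did so for the CCAAT box, the CHR element and the GC box, those of NUP210L for the CCAAT box and those of NUP160 for the GC box. The windows of all genes were not limited to genes expressed here, as nearly all members are, so the 2 sets differ in more than role. The window of NUP210, which fell, and that of NUP58, which rose, both held the first E2F spelling.

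The pore membrane proteins went in both directions. NUP210, a large transmembrane nucleoporin whose luminal part lies between the envelope's membranes, had 159, 162 and 146 CPM with the HOTAIR-N siRNA, against 395, 364 and 382 CPM with the control siRNA. No library of one group came near the other, and its level was 41% of the control, the largest fall of any member (log2 fold change -1.29, SE 0.05, edgeR adjusted p = 5.8e-10). NDC1, the transmembrane protein that helps tie the inner ring to the membrane, had 119, 123 and 134 CPM with the HOTAIR-N siRNA, against 99.9, 110 and 95.8 CPM with the control siRNA. Its groups were apart by less than the spread within either, and it rose by a log2 fold change of 0.30 (SE 0.06, edgeR adjusted p = 8.4e-04). POM121, an anchor with a role in pore assembly, fell to 173 ± 6.36 CPM with the HOTAIR-N siRNA, against 215 ± 8.71 CPM with the control siRNA (SD, n = 3 each; edgeR adjusted p = 5.9e-05). POM121 has the near-identical copy POM121C, so the split of reads between them is uncertain. Per length, NUP210 made up 27.9% ± 1.45 of the summed TPM of the 3 anchors with the HOTAIR-N siRNA and 47% ± 0.92 with the control siRNA, and NDC1 made up 34% ± 2.09 with the HOTAIR-N siRNA and 19.2% ± 1.68 with the control siRNA (SD, n = 3). These shares of summed TPM, and those of the other roles, are given as descriptions without a test.

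Of the 6 outer ring genes, 4 fell and 2 rose, with a median log2 fold change of -0.35. NUP43, a beta-propeller protein at the arm of the Y complex, had 41, 40.2 and 45.2 CPM with the HOTAIR-N siRNA, against 82.1, 87 and 81.1 CPM with the control siRNA. The groups did not overlap, and the level was 50.5% of the control (log2 fold change -0.98, SE 0.06, edgeR adjusted p = 1.9e-08). Exons of NUP43 overlap PCMT1 on the opposite strand in GENCODE v29. For this and each further overlap named, the sources used here do not give the use of strand in counting. Only protein-coding genes on the opposite strand are named in this way. Other members overlap noncoding genes there, among them XPO1, KPNB1 and NUP153, or genes on the same strand, such as IPO11 with KIF2A. NUP85 fell by 0.66, NUP107 by 0.37 and NUP160 by 0.33 on the log2 scale, all of them structural proteins of the Y complex. NUP133, which forms the tip of the Y stalk together with NUP107, went the other way. It had 144, 144 and 151 CPM with the HOTAIR-N siRNA, against 114, 123 and 116 CPM with the control siRNA. The groups did not overlap and the log2 fold change was 0.32 (SE 0.05, edgeR adjusted p = 7e-05). NUP37, a further propeller of the complex, rose by 0.19 (edgeR adjusted p = 9.3e-03) and lost this call when control siRNA replicate 3 was left out (log2 fold change 0.14, edgeR adjusted p = 0.062). NUP133 and NUP107, partners in the stalk, thus changed in opposite directions.

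The inner ring genes were lower, 4 of 5 by the test, with a median log2 fold change of -0.36. NUP93, the linker that holds the inner ring together, had 46.2, 41.5 and 42.2 CPM with the HOTAIR-N siRNA, against 76.1, 78 and 76.9 CPM with the control siRNA. These values stood far apart, at 56.3% of the control (log2 fold change -0.83, SE 0.05, edgeR adjusted p = 4.6e-08). Among the scaffold proteins of the ring, NUP205 fell by 0.73, its paralog NUP188 by 0.36 and NUP155 by 0.26 on the log2 scale. NUP35, which binds the membrane, had a log2 fold change of -0.12 (edgeR adjusted p = 0.15), and its groups overlapped. Exons of NUP188 overlap SH3GLB2 on the opposite strand.

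The 3 channel genes, whose proteins form 1 complex with repeats that transport receptors bind, were 1 that rose, 1 that fell and 1 that did not pass. NUP58 had 69.4, 70.6 and 74.6 CPM with the HOTAIR-N siRNA, against 42.6, 44.1 and 40 CPM with the control siRNA. Every HOTAIR-N siRNA value was above every control siRNA value, and the level was 1.69-fold the control (log2 fold change 0.76, SE 0.06, edgeR adjusted p = 1.3e-07). NUP54 fell to 24.6 ± 1.15 CPM with the HOTAIR-N siRNA, against 32.2 ± 1.55 CPM with the control siRNA (edgeR adjusted p = 1.3e-04). NUP62, with a log2 fold change of -0.04, did not pass the test (edgeR adjusted p = 0.63), and its exons overlap ATF5 on the opposite strand. NUP58 made up 29.1% ± 1.86 of the summed TPM of the 3 genes with the HOTAIR-N siRNA and 18% ± 1.21 with the control siRNA (SD, n = 3).

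On the cytoplasmic face 3 genes fell, 2 rose and 1 did not pass. RANBP2, the filament protein that binds RAN, had 127, 118 and 130 CPM with the HOTAIR-N siRNA, against 155, 172 and 160 CPM with the control siRNA. The groups did not overlap and the log2 fold change was -0.38 (SE 0.05, edgeR adjusted p = 4.4e-05), although reads of RANBP2 can be split with its RGPD copies. NUP214, a filament protein that binds exportin 1 and an mRNA export helicase, fell by 0.42 on the log2 scale, and its partner NUP88, whose exons overlap RABEP1 and RPAIN on the opposite strand, had a log2 fold change of -0.03 (edgeR adjusted p = 0.59). NUP98, a repeat protein found on both faces of the pore, had 172, 170 and 164 CPM with the HOTAIR-N siRNA, against 186, 195 and 188 CPM with the control siRNA. Its groups were separate but close, with a log2 fold change of -0.17 (SE 0.04, edgeR adjusted p = 3.1e-03). When libraries were scaled by their totals alone the call was lost (log2 fold change -0.07, edgeR adjusted p = 0.12), and exons of NUP98 overlap PGAP2 on the opposite strand. RAE1, an mRNA export factor that binds NUP98, had 134, 133 and 139 CPM with the HOTAIR-N siRNA, against 98.2, 104 and 109 CPM with the control siRNA. It was higher in 3 of 3 libraries (log2 fold change 0.38, SE 0.05, edgeR adjusted p = 2.1e-05). AAAS, which NDC1 holds at the pore and whose loss causes the triple A syndrome, had 57.9, 60.6 and 57.1 CPM with the HOTAIR-N siRNA, against 50.7, 46.4 and 48.3 CPM with the control siRNA. It rose by a log2 fold change of 0.27 (SE 0.05, edgeR adjusted p = 6.4e-04). NUP98 and RAE1, which bind each other, changed in opposite directions, and NDC1 and AAAS in the same one.

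All 3 nuclear basket genes fell, by less than the leading genes of the other parts. NUP153, which anchors the basket and binds importins, had 153, 152 and 158 CPM with the HOTAIR-N siRNA, against 193, 210 and 193 CPM with the control siRNA. The highest value with the HOTAIR-N siRNA was below the lowest control value (log2 fold change -0.37, SE 0.05, edgeR adjusted p = 1.5e-05). TPR, the coiled-coil protein of the basket, had 339, 329 and 359 CPM with the HOTAIR-N siRNA, against 386, 429 and 398 CPM with the control siRNA. Its log2 fold change was -0.24 (SE 0.05, edgeR adjusted p = 8e-04), and its exons overlap PRG4 on the opposite strand. NUP50, which helps release cargo from importin alpha, fell by 0.27 on the log2 scale (edgeR adjusted p = 1.3e-03).

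**Figure D3:**
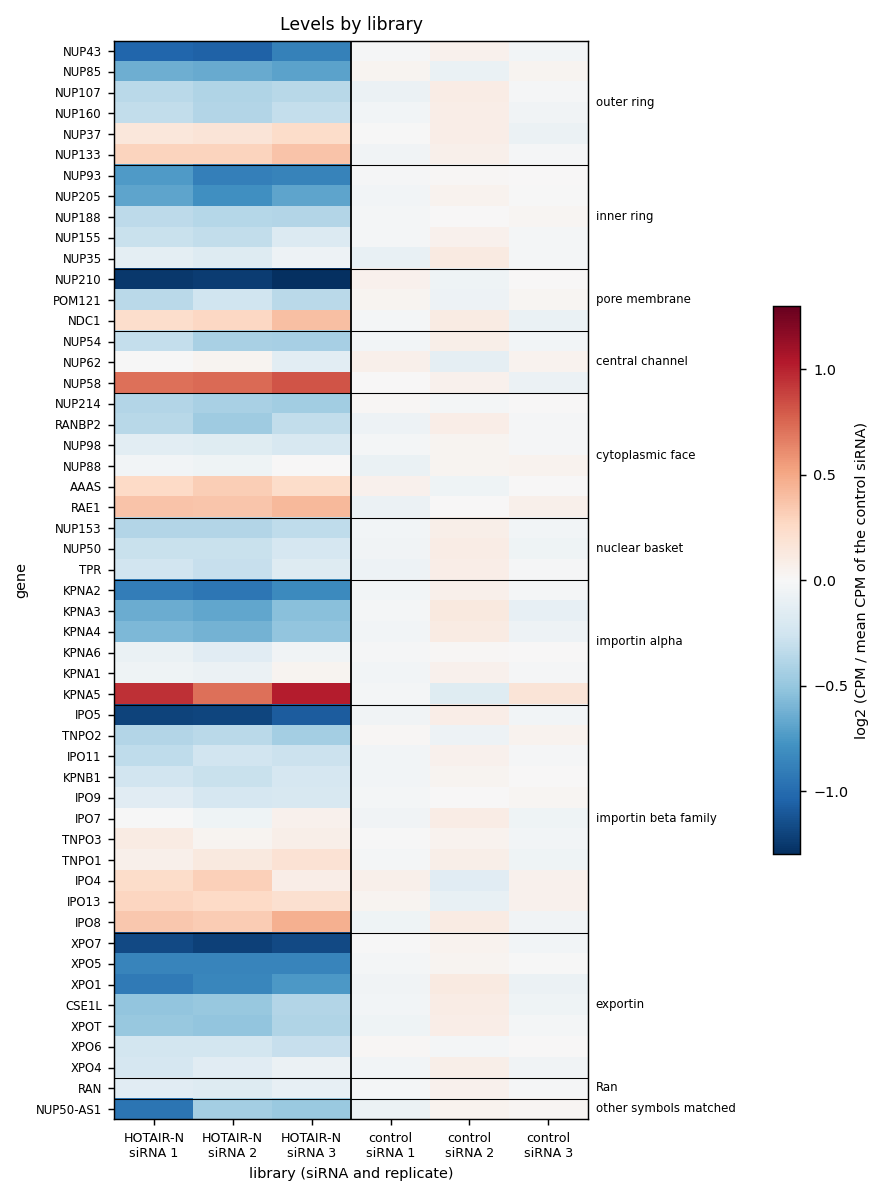
Level of each tested member in each library, as log2 of its CPM over the mean CPM of the 3 control siRNA libraries, with HOTAIR-N siRNA libraries in the left 3 columns and control siRNA libraries in the right 3. Blue is lower and red is higher; NUP210, XPO7 and IPO5 are dark blue in all 3 HOTAIR-N siRNA libraries, KPNA5 and NUP58 are red in all 3, and control siRNA replicate 2 is slightly red for most members.

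Among the importins of the beta family, which carry cargo through the channel, 5 fell, 4 rose and 2 did not pass, and the median log2 fold change was 0.00. IPO5, which carries ribosomal proteins and core histones, had 134, 134 and 145 CPM with the HOTAIR-N siRNA, against 296, 326 and 299 CPM with the control siRNA. The groups lay far apart and the level was 44.8% of the control (log2 fold change -1.16, SE 0.05, edgeR adjusted p = 1.6e-09). KPNB1, importin beta itself, which carries importin alpha with its cargo, had 516, 503 and 527 CPM with the HOTAIR-N siRNA, against 596, 633 and 614 CPM with the control siRNA. It was lower in 3 of 3 libraries, with a log2 fold change of -0.25 (SE 0.04, edgeR adjusted p = 6.6e-05). TNPO2 fell by 0.39, IPO11 by 0.29 and IPO9 by 0.19 on the log2 scale. IPO8, an importin also linked to Argonaute proteins, had 168, 166 and 182 CPM with the HOTAIR-N siRNA, against 127, 142 and 128 CPM with the control siRNA. Its groups did not overlap (log2 fold change 0.38, SE 0.06, edgeR adjusted p = 5.9e-05). IPO7, the closest relative of IPO8, had 375 ± 16.4 CPM with the HOTAIR-N siRNA and 376 ± 23.9 CPM with the control siRNA (SD, n = 3 each; edgeR adjusted p = 0.94). IPO13, a receptor that works in both directions, had 69.5, 68.5 and 66.3 CPM with the HOTAIR-N siRNA, against 58.8, 53.4 and 59.9 CPM with the control siRNA. It rose by a log2 fold change of 0.25 (SE 0.06, edgeR adjusted p = 1.7e-03).

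IPO4, a carrier of histones, rose by 0.22 on the log2 scale (edgeR adjusted p = 0.016), but the call was lost without HOTAIR-N siRNA replicate 1 (0.058), without HOTAIR-N siRNA replicate 2 (0.085) and without control siRNA replicate 2 (0.051, all edgeR adjusted p), and its exons overlap REC8 on the opposite strand. TNPO1, which carries many RNA-binding proteins, rose by 0.13 (edgeR adjusted p = 0.036). That call was lost without HOTAIR-N siRNA replicate 2 (0.063) or 3 (0.12) and without control siRNA replicate 1 (0.14) or 3 (0.17, all edgeR adjusted p), with DESeq2 (adjusted p = 0.062) or its size factors in edgeR (0.058), and with no filter on low counts (edgeR adjusted p = 0.072). Adding the replicate number to the model lost the call as well (edgeR adjusted p = 0.077). TNPO3, the carrier of splicing factors rich in serine and arginine, had a log2 fold change of 0.08 and did not pass (edgeR adjusted p = 0.15), and passed when libraries were scaled by totals alone (0.17 on the log2 scale, edgeR adjusted p = 3.4e-03) or by their upper quartile (0.13, edgeR adjusted p = 0.018). Per length, KPNB1 held 33% ± 0.265 of the summed TPM of the 11 genes with the HOTAIR-N siRNA and 35% ± 0.317 with the control siRNA. IPO5 held 5.95% ± 0.19 with the HOTAIR-N siRNA and 11.8% ± 0.309 with the control siRNA (SD, n = 3).

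Importin alpha proteins recognise the classical localisation signal and bind importin beta, and the family's subtypes differ in the cargo they prefer. KPNA2, the most abundant of them here, had 353, 342 and 369 CPM with the HOTAIR-N siRNA, against 637, 688 and 645 CPM with the control siRNA. No HOTAIR-N siRNA library reached 75% of any control siRNA library, and the level was 54% of the control (log2 fold change -0.89, SE 0.04, edgeR adjusted p = 3.4e-09). KPNA2 has processed pseudogenes, which could take some of its reads. KPNA3 and KPNA4, 2 closely related subtypes, fell to 65% and 67.5% of their control levels (log2 fold changes -0.62 and -0.57). KPNA1 had a log2 fold change of -0.03 (edgeR adjusted p = 0.58) and KPNA6 one of -0.10 (edgeR adjusted p = 0.07). KPNA6 passed without HOTAIR-N siRNA replicate 3 (-0.13, edgeR adjusted p = 0.036). KPNA5, in the same subfamily as KPNA1 and KPNA6, had 6.2, 5.26 and 6.49 CPM with the HOTAIR-N siRNA, against 3.14, 2.86 and 3.61 CPM with the control siRNA. Although low, it was higher in 3 of 3 libraries, from 623 expected counts in all with the HOTAIR-N siRNA and 334 with the control siRNA (log2 fold change 0.90, SE 0.12, edgeR adjusted p = 3e-05).

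The makeup of the importin alpha RNA differed accordingly. In TPM, which is per length, the family summed to 460, 450 and 488 with the HOTAIR-N siRNA, against 748, 801 and 747 with the control siRNA, or 60.9% of the control. KPNA2 accounted for 73.4%, 73.4% and 73.2% of that sum in the HOTAIR-N siRNA libraries and for 80.9%, 80.9% and 81.2% in the control siRNA libraries. KPNA1 accounted for 9.57% ± 0.122 with the HOTAIR-N siRNA and 5.83% ± 0.0404 with the control siRNA, and KPNA5 for 1.21% ± 0.0911 with the HOTAIR-N siRNA and 0.388% ± 0.0581 with the control siRNA (SD, n = 3). KPNA2 thus remained the main subtype in all 6 libraries, with a smaller share in the HOTAIR-N siRNA libraries.

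All 7 exportin genes fell, with a median log2 fold change of -0.46. XPO7, an exportin with broad cargo, had 69.3, 67.4 and 69.3 CPM with the HOTAIR-N siRNA, against 155, 161 and 151 CPM with the control siRNA. The spread within each group was small and the level was 44.1% of the control (log2 fold change -1.18, SE 0.05, edgeR adjusted p = 5.4e-10). XPO5, which exports microRNA precursors, had 135, 134 and 134 CPM with the HOTAIR-N siRNA, against 239, 250 and 243 CPM with the control siRNA. Its level was 55.1% of the control (log2 fold change -0.86, SE 0.04, edgeR adjusted p = 2.2e-09), and its exons overlap POLR1C on the opposite strand. XPO1, the exportin of proteins with a leucine-rich export signal, had 184, 193 and 207 CPM with the HOTAIR-N siRNA, against 338, 379 and 330 CPM with the control siRNA. The groups did not overlap, at 55.8% of the control (log2 fold change -0.84, SE 0.06, edgeR adjusted p = 8.9e-08). XPOT, which exports tRNA, and CSE1L, which returns importin alpha to the cytoplasm, each fell by 0.46 on the log2 scale. XPO6, which exports actin, fell by 0.26 (edgeR adjusted p = 9.9e-05). XPO4 fell by 0.15 (edgeR adjusted p = 0.037) and lost the call without HOTAIR-N siRNA replicate 1 (0.16) or 2 (0.081) and without control siRNA replicate 2 (0.08, all edgeR adjusted p), and with scaling by totals alone (0.44) or by the upper quartile (0.17). Adding the replicate number to the model lost the XPO4 call as well (edgeR adjusted p = 0.081).

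RAN itself, the GTPase that all of these carriers respond to, changed little. It had 695, 684 and 715 CPM with the HOTAIR-N siRNA, against 751, 800 and 756 CPM with the control siRNA. The groups did not overlap, and the log2 fold change was -0.14 (SE 0.04, edgeR adjusted p = 5.1e-03). The call was lost when libraries were scaled by totals alone (-0.04, edgeR adjusted p = 0.30) or by the upper quartile (-0.08, edgeR adjusted p = 0.061), and processed pseudogenes of RAN could take some of its reads.

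Summed per length, the receptors were further below their control level than the pore genes. In TPM, the 25 transport receptor genes summed to 1774 ± 54 with the HOTAIR-N siRNA and 2407 ± 90.4 with the control siRNA, or 73.7%. The 26 pore genes summed to 1351 ± 18.8 TPM with the HOTAIR-N siRNA and 1515 ± 23.3 TPM with the control siRNA, or 89.2% (SD, n = 3). Gene by gene the 2 groups were alike, with medians of -0.26 over 24 tested receptors and -0.29 over the pore genes on the log2 scale. The sums follow the abundant genes. With the control siRNA, KPNA2 stood at 620 ± 24.2 TPM, next to RAN at 594 ± 19.7, and these neighbours overlapped in their spread. CSE1L at 309 ± 19.2 TPM and KPNB1 at 286 ± 8.53 TPM came next, then XPO1 at 137 ± 10.4, XPOT at 127 ± 7.15, RAE1 at 116 ± 5.65, IPO7 at 115 ± 7.23, NUP37 at 106 ± 6.01 and NUP210 at 99 ± 4.46 TPM, and from CSE1L on the mean ± SD of each pair of neighbours overlapped, other than KPNB1 and XPO1. Of these 10 most abundant members, 7 fell, 2 rose and 1 did not pass. NUP58 at 18.6 ± 0.983 TPM, XPO4 at 11.2 ± 0.558 and KPNA5 at 2.96 ± 0.346 were among the lowest.

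By role, the exportins summed to 565 ± 21.5 TPM with the HOTAIR-N siRNA and 822 ± 39 TPM with the control siRNA. The pore membrane genes were at 70.7% of their control sum, the inner ring at 74.2%, the basket at 83.5%, the outer ring at 89.5%, the importin beta family at 90.7% and RAN at 92.6%. The central channel, at 107%, and the cytoplasmic face, at 109%, were above it. In each of these roles the sums of the groups did not overlap. RAE1, the most abundant gene of the cytoplasmic face, had 155 ± 4.01 TPM with the HOTAIR-N siRNA and 116 ± 5.65 TPM with the control siRNA. TPM shares move with the rest of the RNA in a library, and all members together held 0.363% to 0.378% of the TPM with the HOTAIR-N siRNA and 0.444% to 0.468% with the control siRNA.

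**Figure D4:**
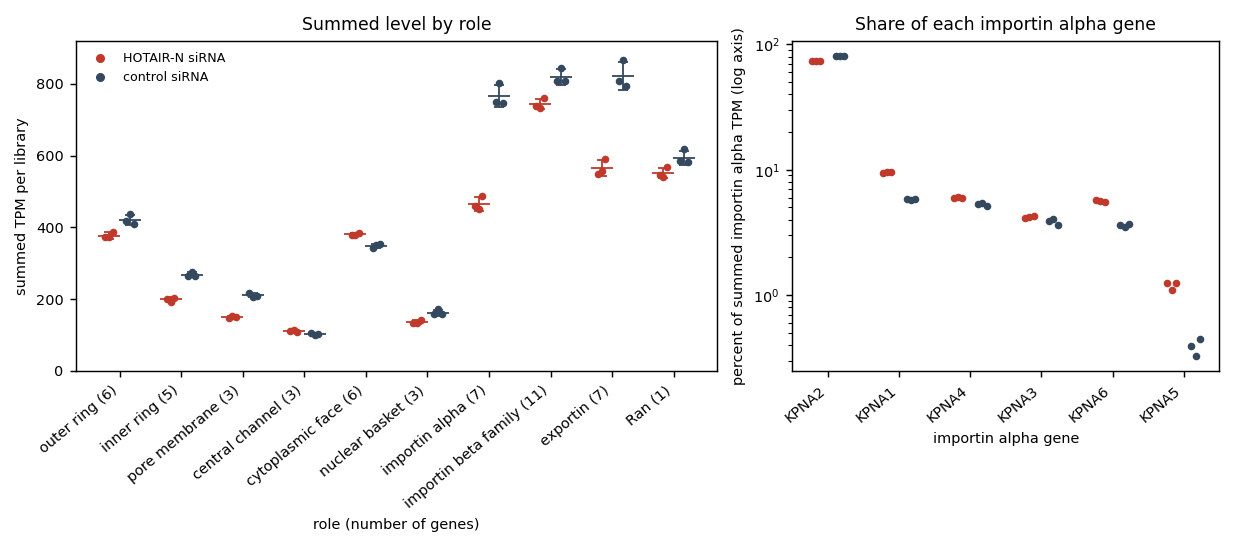
Left, summed TPM of each role in each library (points) with the mean and SD of 3 libraries, HOTAIR-N siRNA in red and control siRNA in dark blue. Right, the percent of the summed importin alpha TPM that each gene held in each library, on a log axis; KPNA2 is at 73.2% to 73.4% with the HOTAIR-N siRNA and 80.9% to 81.2% with the control siRNA, and KPNA5 is the lowest of the 6 tested genes in both (KPNA7, which was not tested, is not drawn).

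At the level of transcripts, 113 RefSeq transcripts of the members were listed and 94, from 52 genes, were tested. Of these 38 fell and 13 rose, where 16.6% of all 32285 transcripts tested fell and 15.4% rose. The share of a transcript within its gene could be tested for 70 transcripts of 28 genes, and 5 shares in 4 genes were called. The test used shares of the gene's expected counts, whereas the percents printed below are the deposited ones, which allow for transcript length. Among all 25038 shares tested, 6.01% were called, so the count for the members is near that background. POM121 and TNPO2 carried 3 of the 5, and the others were a form of NUP98 and a form of NUP54.

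For POM121, the transcript NM_001257190, which starts upstream of the other form, made up 23.4%, 24.8% and 25.9% of the gene with the HOTAIR-N siRNA, against 13.8%, 14.9% and 15.9% with the control siRNA (limma adjusted p = 0.014 for the share). Its level rose (log2 fold change 0.39, edgeR adjusted p = 0.011), while the main form NM_172020 fell (-0.52, edgeR adjusted p = 6.4e-04). The share call was lost in 3 of 6 tests that left out 1 library, those without HOTAIR-N siRNA replicate 2 (0.062) or 3 (0.056) and without control siRNA replicate 2 (0.059). It was also lost with the replicate number added to the model (limma adjusted p = 0.097). For TNPO2, a transportin, NM_001136195 made up 70.2%, 75.5% and 66.7% of the gene with the HOTAIR-N siRNA, against 46.6%, 36.4% and 45% with the control siRNA (limma adjusted p = 0.041). NM_013433 made up 14.2%, 12.8% and 17.9% with the HOTAIR-N siRNA, against 33.8%, 46% and 38.4% with the control siRNA (limma adjusted p = 0.023), and its level fell by 1.79 on the log2 scale (edgeR adjusted p = 4.8e-04). The groups of both forms were well apart, yet leaving out a single library lost the first call in 6 of 6 tests (0.054 to 0.13) and the second in 5 of 6 (0.037 to 0.085), the exception being without HOTAIR-N siRNA replicate 3. Both calls were also lost with the replicate number added to the model (limma adjusted p = 0.21 and 0.16).

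NUP98 also encodes its partner NUP96 in its longest transcripts, as a precursor that is cut. The long form NM_016320 made up 66.8%, 68.3% and 63.7% of the gene with the HOTAIR-N siRNA, against 77.7%, 72.9% and 76.8% with the control siRNA, and its level fell by 0.28 on the log2 scale (edgeR adjusted p = 4e-03). Its share did not pass (limma adjusted p = 0.29). NM_005387 made up 26% ± 2.26 with the HOTAIR-N siRNA and 19.9% ± 1.27 with the control siRNA (limma adjusted p = 0.069), and NM_139132 made up 2.61% ± 1.22 with the HOTAIR-N siRNA and 4.25% ± 1.33 with the control siRNA (limma adjusted p = 0.51). NM_139131 had 101, 156.9 and 336.3 expected counts in the HOTAIR-N siRNA libraries and was at 0 in all 3 control siRNA libraries. Its share was 2.39%, 4.18% and 8.76% with the HOTAIR-N siRNA and the call was kept in each of 6 tests without 1 library (limma adjusted p = 2.4e-03, range 3.2e-03 to 0.016). With the replicate number added to the model the call was lost (limma adjusted p = 0.07). The reverse was seen for NUP54, whose noncoding form NR_103780 was at 0 in all 3 HOTAIR-N siRNA libraries and had 102.5, 79.1 and 115.9 expected counts in the control siRNA libraries (limma adjusted p = 2e-04). That form was named after its values were seen. Such estimates divide reads that several forms share. A listed 0 is an estimate as well, and the share test adds 0.5 to each count.

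The other leading shares missed the threshold. For XPO6, NM_001270940 made up 17.6%, 15.4% and 15% of the gene with the HOTAIR-N siRNA, against 6.64%, 6.86% and 3.72% with the control siRNA (limma adjusted p = 0.052). Its level rose (log2 fold change 1.23, edgeR adjusted p = 0.013), and that of the main form NM_015171 fell (-0.42, edgeR adjusted p = 4e-04). For NUP43, the noncoding NR_104456 made up 57.4% ± 2.34 with the HOTAIR-N siRNA and 48.7% ± 0.782 with the control siRNA (limma adjusted p = 0.064), and the levels of both NUP43 forms fell. In expected counts, which the test used, NR_104456 was below the other form, NM_198887, in every library. With the HOTAIR-N siRNA it had 665, 583.1 and 628.4 counts, against 828, 738.9 and 931.6 for NM_198887. The antisense gene NUP50-AS1, matched by its symbol alone, had NR_038957 at 91.4% ± 10.7 with the HOTAIR-N siRNA and 56.4% ± 5.36 with the control siRNA (limma adjusted p = 0.055). As a gene it fell to 3.48 ± 0.637 CPM with the HOTAIR-N siRNA, against 5.28 ± 0.261 CPM with the control siRNA (edgeR adjusted p = 1.3e-03).

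**Figure D5:**
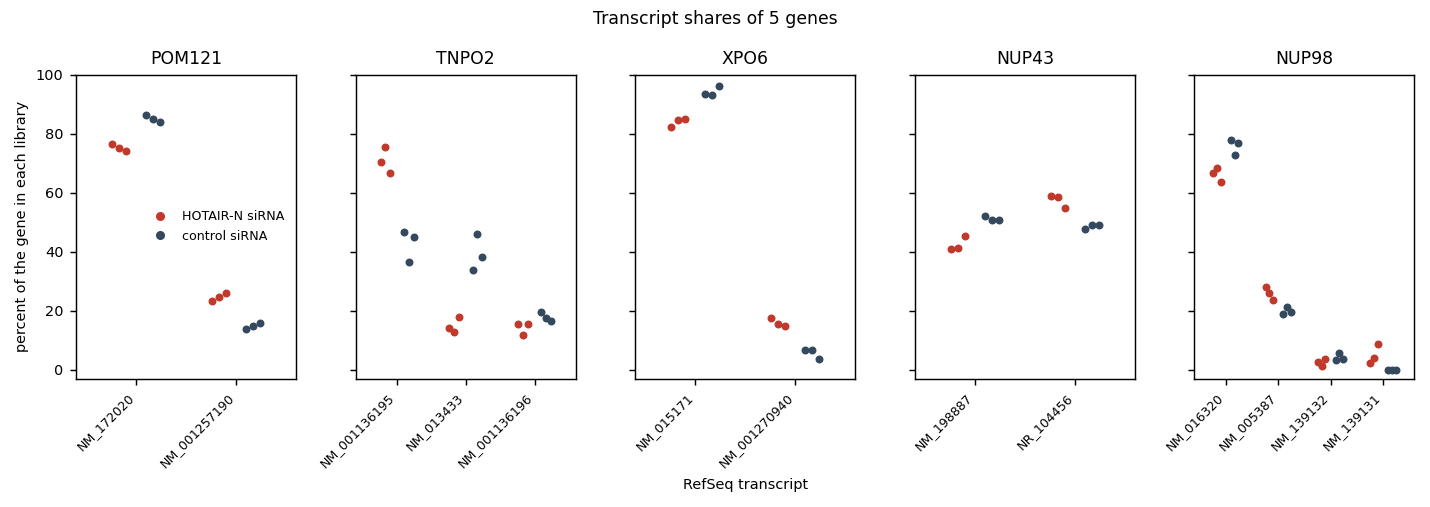
Percent of its gene that each RefSeq transcript made up in each library, for POM121, TNPO2, XPO6, NUP43 and NUP98, HOTAIR-N siRNA in red and control siRNA in dark blue. The points of the groups are apart for every form drawn except NM_139132 of NUP98, and NM_139131 of NUP98 is at 0 in the 3 control siRNA libraries. Of the forms drawn, only NM_001257190, NM_013433, NM_001136195 and NM_139131 passed the share test.

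Another 4 symbols gave no test. KPNA7, an importin alpha of the early embryo, had 10 expected counts in all with the HOTAIR-N siRNA and 1 with the control siRNA. NUP210L, a relative of NUP210, had 6 in each group, NUP62CL had 1 with the HOTAIR-N siRNA and 0 with the control siRNA, and the pseudogene NUP210P1 had 0 in both.

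Genes of the same pathway outside the list were counted in the same fit, in which 34.8% of all genes tested fell and 36.2% rose. Of 8 further pore genes, all tested, 4 fell and 2 rose, with a median log2 fold change of -0.12. CETN3, a centrin that is also found at the pore, fell to 15.4 ± 1.01 CPM with the HOTAIR-N siRNA, against 38.2 ± 2.63 CPM with the control siRNA. GLE1, an activator of the mRNA export helicase, fell by 0.52 and POM121C by 0.27 on the log2 scale, while SEH1L, a member of the Y complex, rose by 0.44. Of 18 tested genes of the RAN cycle and its binding proteins, 11 fell and 6 rose (median -0.26). RANBP1, which helps free RAN from transport receptors, fell to 57.2 ± 0.814 CPM with the HOTAIR-N siRNA, against 97 ± 5.43 CPM with the control siRNA. The protease SENP1 fell by 0.80 and RANBP10 by 0.59 on the log2 scale.

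Of 27 tested mRNA and snRNA export genes, 14 fell and 5 rose (median -0.13), where 34.8% of all genes fell and 36.2% rose. Those with the smallest p were the export cofactors POLDIP3 (log2 fold change -0.95), ALYREF (-0.73), ZC3H11A (-0.49) and SARNP (-0.32). The nuclear lamina and envelope list had 15 of 23 lower and 5 higher (median -0.26). In it the B-type lamins LMNB1 and LMNB2 fell by 0.91 and 1.25, the lamina-associated TMPO by 1.14 and the nesprin SYNE3 by 1.87 on the log2 scale. A list of 20 cell division genes was counted beside these because several pore and transport proteins act in mitosis. All 20 fell, with a median log2 fold change of -1.08. The cytokinesis genes ANLN (-1.71) and KIF23 (-1.47), the topoisomerase TOP2A (-1.62) and the cyclin CCNB1 (-1.16) had the smallest p. Each of these called genes had an edgeR adjusted p of 4.2e-04 or less. Cell division genes and the transport genes were lower in the same libraries, and the part of cell division in the members' changes was not tested.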

How the data were processed

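Per the labels, stranded total RNA libraries depleted of ribosomal RNA were made. The submitters' processing notes name STAR 2.6.0c, RSEM 1.3.0 and hg19 as the build. The deposited tables give, per the file headers, expected counts and TPM for genes and transcripts, and the percent of its gene that each transcript makes up.

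Expected counts were rounded, filtered (edgeR's filterByExpr, minimum count 10, minimum total 15) and scaled by TMM. All genes went into the quasi-likelihood test of edgeR 4.0.16 in R 4.3.3, with a Benjamini-Hochberg adjusted p under 0.05 as the threshold. CPM are TMM-scaled. Each transcript's share of its gene's expected counts (0.5 added to each) was tested on the log2 scale with limma 3.58.1. Steps were tested on simulated counts. Members and lists were chosen with earlier results of these data known. Values in every library are given for the 8 largest rises and falls whose average log2 CPM is 0 or more, and for RAN, KPNB1, XPO1, RANBP2, TPR, KPNA2, NUP98 and NUP153. The 4 genes of smallest p were named per list, and the 6 transcripts of smallest share p holding at least 10% of their gene, with those of NUP98; 1 gene chosen by this rule is not reported here. Alternatives were other scalings, DESeq2 1.42.0, limma-voom, other filters and thresholds, a replicate block and leaving libraries out.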

Additional observations from a re-analysis of the deposited data

How the results depend on the processing

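Over 17 alternatives, the 52 members gave 884 comparisons with the reported result. In these, 837 kept the call or its absence, 43 lost the call, 4 gained it and 0 were called in the opposite direction. Members without a call and with a fold change near 0 can change sign between scalings, which these counts do not show. Against a 1.2-fold change, 26 members passed (22 lower, 4 higher), 6876 of all genes (3312 lower, 3564 higher), and 3 further pore, 10 RAN cycle, 4 export and 13 lamina genes. The members' median log2 fold change was -0.17 with library totals alone, where that of all genes was 0.12, and -0.21 with upper-quartile scaling; without 1 library it ranged from -0.30 to -0.25. Without 1 library 42 to 45 members were called, and 9906 to 10727 of all genes. Called transcript shares numbered 10 with a filter of 1 CPM in 3 libraries, 2 at adjusted p under 0.01, and 3 to 5 without 1 library. Causes were not tested, except that a test against 1.2-fold asks for a larger change and a stricter threshold for a smaller p.

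Replicate numbers were shared by the groups, but same-numbered libraries did not deviate together across all genes (r = -0.04, -0.21 and -0.12). Over the members alone, r was 0.31, -0.33 and -0.37. HOTAIR-N siRNA replicate 3 and control siRNA replicate 2 had an r of 0.22 over all genes and 0.64 over members. With 3 libraries per group, such values cannot settle whether the numbers mark pairs, and the main test used no pairing. With the replicate block, 43 members (33 lower, 10 higher), 10010 of all genes, 42 transcripts and 1 transcript share were called. Under it TNPO1 (adjusted p = 0.077), XPO4 (0.081) and the shares of NM_001257190 (0.097), NM_013433 (0.16), NM_001136195 (0.21) and NM_139131 (0.07) did not pass. Counts of about 33 to 36 per CPM limit KPNA5, NUP50-AS1 and the rarer transcripts most.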

Other observations

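The 7 letters GACCAAT, a word picked earlier from these same fold changes, occurred in the annotated 3′ UTR of 0 of the 43 tested members matched to a GENCODE v29 transcript, and in 557 of 11180 matched genes tested (4.98%). Its last 6 letters, ACCAAT, occurred in 10 of the 43 (23.3%), against 20.3% of those genes. The 10 were IPO7, KPNA1, KPNA3, KPNA4, KPNA5, NUP43, XPO1, XPO4, XPO7 and XPOT. Their median log2 fold change was -0.51, and that of the 33 without it was -0.29. As the word was picked from these same fold changes, this difference is not independent evidence on the letters. The set holds KPNA5, the largest rise of all members, and IPO7, at 0.00, beside XPO7 at -1.18, and no test was made of the difference. UTR length, which ran from 406 bases in KPNA5 to 7109 in KPNA4 among the 10, was not taken into account.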
